A study of Homo sapiens with 6 samples.

Results

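The mRNAs of 5 subunits of the Sm ring, SNRPB, SNRPD1, SNRPD2, SNRPD3 and SNRPG, were followed in AGS, a human cell line of gastric adenocarcinoma, given vehicle or SSD (saikosaponin-D, a triterpenoid saponin of Radix Bupleuri) for 24 h. They were taken by gene symbol as the ring subunits among the 1099 genes of the table, which gives an estimated read count and a TPM (a read share corrected for length) for each gene in 3 vehicle and 3 SSD libraries. All libraries were polyA RNA-seq of cells labelled wild type, and nothing in the labels says that the 3 libraries of a group came from separate cultures, so p-values measure only the spread between these libraries. The treatment protocol in the labels gives 10 μM of a compound under a code name, the methods give a lower dose of SSD, and the growth protocol names a prostate line in place of AGS, so neither the dose nor these protocol entries are settled here.

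Sm proteins form a heteromeric ring around the small nuclear RNAs of the U1, U2, U4 and U5 particles, and the loaded particles build the spliceosome, which removes introns from pre-mRNA. SNRPB encodes SmB and its splice form SmB′, and SNRPD1, SNRPD2, SNRPD3 and SNRPG encode SmD1, SmD2, SmD3 and SmG. The subunits are stored as the partial complexes D1-D2, D3-B and E-F-G, and the SMN complex closes them into a ring on the RNA after arginines in the tails of SmB, SmD1 and SmD3 have been methylated by PRMT5. Several splicing factors are known Myc targets, and the study followed them under SSD after its own analysis of these libraries had pointed to splicing and to Myc targets.

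The study's own qPCR primers are shown because they mark which transcripts of each subunit that assay can read. The study reports splicing factor expression after a Myc and a PIM1 inhibitor, and its text names no qPCR of these subunits under SSD. Each primer is written 5′ to 3′, the reverse primer as ordered, and capitals mark bases on the far side of an exon junction in transcript order. Positions are from GENCODE release 29 on GRCh38.
SNRPB forward (chr20:2470703-2470721, minus strand gene, 5′ UTR in exon 1): ggcgggtatcagagccatc
SNRPB reverse (chr20:2467658-2467677, coding, exon 2): tcaaaagccttgaaggtgcc
SNRPD1 forward (chr18:21629847-21629866, plus strand gene, 3′ UTR in exon 4): attctgtggcacctacccac
SNRPD1 reverse (chr18:21629960-21629980, 3′ UTR in exon 4): accaggtacctaagactccgt
SNRPD2 forward (chr19:45688554-45691894, minus strand gene, 5′ UTR and coding, across exons 2 and 3): accatcatGAGCCTCCTCAAC
SNRPD2 reverse (chr19:45687716-45688394, coding, across exons 3 and 4): ATGTTGCAGTGCctatcgaa
SNRPG forward (chr2:70293665-70293684, minus strand gene, 5′ UTR in exon 1): ttccaaggcatctgtgagcc
SNRPG reverse (chr2:70288161-70288180, coding, exon 3): tccttggacatgtctgccac

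The SNRPB pair lies in 3 of the gene's 3 annotated transcripts. The SNRPD1 pair lies in 1 of 4, the longest at 4909 bases, and both of its primers fall in the 3′ UTR of a single exon. The SNRPD2 pair lies in 2 of 8 and the SNRPG pair in 5 of 9, with SNRPG products of 99 to 122 bases. No annotated transcript of another gene held both primers of a pair, by exact match. The study's primer list holds no pair for SNRPD3, so 4 of the 5 subunits are covered.

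The table holds genes selected for change between the groups, and on its counts the 1099 genes summed to between 3084337 and 3885606 in 5 libraries and to 4640114 in vehicle replicate 2, which is not library depth, since the same genes carried 30.1% to 33.1% of the TPM. Fold changes are of SSD over vehicle on a whole-library scale, which takes each library's size from the ratio of its counts to its TPM and so reflects all genes of the library. Of all 1099 genes, 712 had a negative log2 fold change on this scale, and none lay between -0.03 and 0.21, a gap whose middle is 0.09 and not 0. Of the markers that could show the line, the table held CDH17, an intestinal-type cadherin, of 7 gastric epithelial genes, 0 of 6 prostate genes, 0 of 2 leukocyte genes and COL1A1 of 3 fibroblast genes. CDH17 had 46.2 ± 1.89 TPM under vehicle and 36.1 ± 2.27 under SSD (SD, n = 3 each), with a log2 fold change of -0.35 ± 0.06 (SE, adjusted p = 0.00068, edgeR), and COL1A1 had 14.2 ± 1.48 and 12.3 ± 2.43 TPM, which overlapped, with -0.25 ± 0.08 (adjusted p = 0.014, and 0.071 under TMM). Both were thus lower on counts along with the subunits, and the part of this in their values was not tested. In a table chosen for change, a marker that is missing says nothing of its level, so the line could not be checked.

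All 5 subunits had a lower mean TPM after SSD, with differences between -31.7% and -8.61%. On counts, SNRPB, SNRPD1, SNRPD2 and SNRPG fell, that is 4 of 5 passed an adjusted p of 0.05 (quasi-likelihood test of edgeR, Benjamini-Hochberg adjustment over the 1099 genes), where 52.8% of the table's genes were called lower by the same rule. The genes had been selected for change between these same groups, and 580 were called lower and 387 higher. Calls and adjusted p-values here are therefore descriptions and not independent evidence of change. SNRPD3 did not pass on counts, with a log2 fold change of -0.18 ± 0.09 (SE, adjusted p = 0.079). SNRPG stood among the genes with the larger falls, 65th from the lowest log2 fold change, with 5.82% of the table below it, while the others were 352nd to 438th, near the middle of the negative values. The median log2 fold change of the 5 subunits was -0.21, beside -0.14 over all genes of the table. In bulk RNA a smaller share of cells that express an mRNA and less of that mRNA per cell cannot be told apart.

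**Figure D1:**
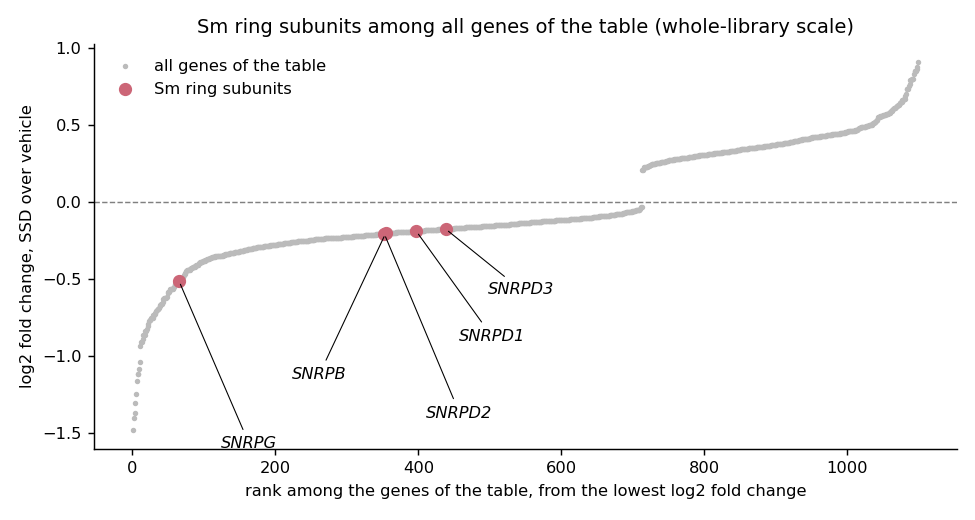
Log2 fold changes of SSD over vehicle on the whole-library scale (y axis) for all 1099 genes of the table (grey points), ranked from the lowest (x axis), with the 5 Sm ring subunits in red. SNRPG sits at rank 65, the other 4 subunits lie between ranks 352 and 438, and no gene lies between -0.03 and 0.21.

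How many subunits were called depended on the scale and on the number of genes adjusted for. Under TMM, which assumes that most genes of the table did not change, all log2 fold changes shifted up by 0.07 at the median, 2 of the 5 subunits were called lower, SNRPD1 and SNRPG, and 26.0% of all genes were. With the whole-library scale and adjustment over 20000 genes, a number set to stand for genes outside the table, SNRPG was the 1 subunit called, beside 14.7% of the table's genes. The direction was negative for all 5 subunits in each of the 17 alternative settings, and SNRPG was called in 17 of 17. These settings are not independent. Dropping the filter gave the same fit, and adjustment over 20000 genes leaves each log2 fold change as it was. On the whole-library scale 64.8% of all genes of the table had that direction.

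**Figure D2:**
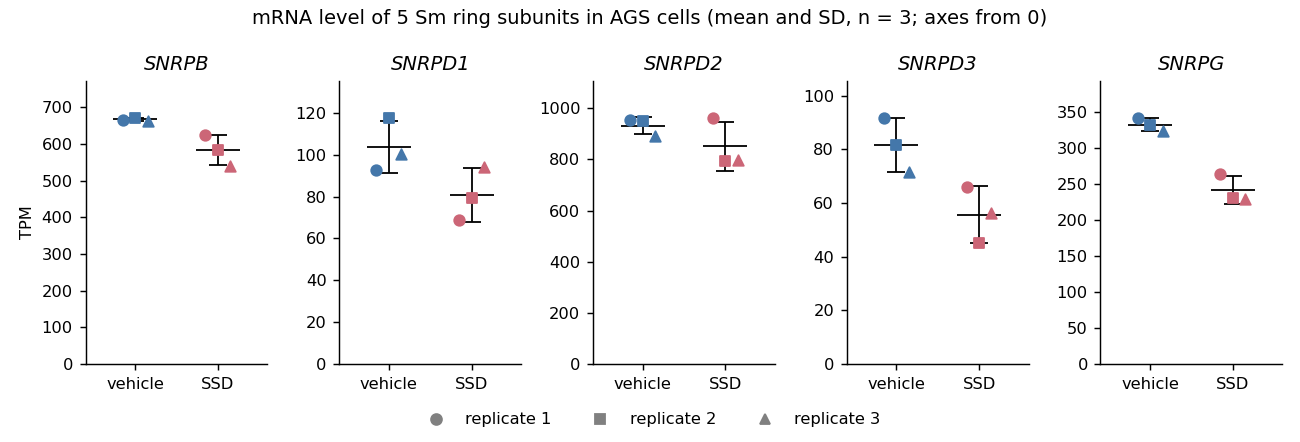
TPM (y axes, each from 0) of the 5 subunits in the 3 vehicle (blue) and 3 SSD (red) libraries, with replicate numbers as marker shapes and the group mean and SD in black. SNRPB, SNRPD3 and SNRPG had every SSD library below every vehicle library, and SNRPD1 and SNRPD2 overlapped.

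On counts, SNRPG had the largest fall and the lowest adjusted p of the subunits. SmG sits in the E-F-G part of the ring and, unlike SmB, SmD1 and SmD3, has no methylated arginine tail. Its TPM was 341.59, 332.34 and 322.87 in vehicle replicates 1 to 3 and 263.91, 230.88 and 229.67 in SSD replicates 1 to 3. Every SSD library was below every vehicle library, as for 44.2% of all genes of the table, and SSD replicate 1 was the highest of its group. The means were 332 ± 9.36 and 241 ± 19.4 TPM (SD, n = 3 each), a difference of -27.3%, for which the exact two-sided permutation test gave p = 0.1, the smallest it can give with 3 libraries against 3. On counts the log2 fold change was -0.51 ± 0.06 (SE, 95% confidence interval -0.65 to -0.38, adjusted p = 0.00018), with a mean of 1183 reads per library, which sets a counting error of 2.91%. Leaving out each library in turn gave -0.57 to -0.48, and each of these 6 fits called it lower.

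SNRPB, which encodes the subunit paired with SmD3 and is the second most abundant of the 5 by TPM, fell less. Its TPM was 666.4, 671.24 and 663.44 under vehicle and 624.73, 584.31 and 541.45 under SSD. The coefficient of variation was 0.59% under vehicle and 7.14% under SSD, and the groups did not overlap. The means were 667 ± 3.94 and 583 ± 41.6 TPM (SD, n = 3 each), and on counts the log2 fold change was -0.21 ± 0.05 (SE, adjusted p = 0.0043). Under TMM it was -0.13 and no longer called (adjusted p = 0.084, same edgeR test).

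SNRPD2 was the most abundant subunit mRNA by TPM, and its product pairs with SmD1. Its TPM was 953.74, 949.66 and 892.78 under vehicle and 962.59, 793.24 and 799.48 under SSD. SSD replicate 1 was the highest of the 6 libraries on this scale, so the groups overlapped, and the means of 932 ± 34.1 and 852 ± 96.0 TPM (SD, n = 3 each) gave an exact two-sided permutation p of 0.4. Scaled to library size, its counts were 2953, 3089 and 2876 under vehicle and 2844, 2376 and 2515 under SSD. These did not overlap, though SSD replicate 1 was close to vehicle replicate 3. The count-based log2 fold change was -0.21 ± 0.07 (SE, adjusted p = 0.014). The call was lost without vehicle replicate 2 (adjusted p = 0.055) and without SSD replicate 2 (adjusted p = 0.072, edgeR in each case), so it depended on single libraries.

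SNRPD1, whose product joins SmD2 and carries a methylated arginine-glycine tail, moved differently on the 2 scales. Its TPM was 92.96, 117.61 and 100.54 under vehicle and 68.92, 79.34 and 94.36 under SSD. SSD replicate 3 lay above vehicle replicate 1, so the groups overlapped, with means of 104 ± 12.6 and 80.9 ± 12.8 TPM (SD, n = 3 each) and an exact two-sided permutation p of 0.2. Its scaled counts were far tighter, at 2721, 2644 and 2693 under vehicle and 2320, 2338 and 2398 under SSD. These values did not overlap, and their coefficient of variation was 1.46% and 1.73%, close to the counting error of 1.98%. The log2 fold change on counts was -0.19 ± 0.05 (SE, adjusted p = 0.0031).

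SNRPD3 was the least abundant of the 5 by TPM, and its product binds SmB. Its TPM was 91.69, 81.45 and 71.6 under vehicle and 65.89, 44.97 and 56.23 under SSD. Every SSD library was below every vehicle library, the means were 81.6 ± 10.0 and 55.7 ± 10.5 TPM (SD, n = 3 each), and the exact two-sided permutation test gave p = 0.1. The scaled counts, at 1113, 999 and 986 under vehicle and 870, 823 and 1048 under SSD, overlapped, because SSD replicate 3 exceeded vehicle replicates 2 and 3. Without SSD replicate 3 the count-based log2 fold change was -0.28 and the gene was called (adjusted p = 0.0029, edgeR's quasi-likelihood test). By level, the order under vehicle was SNRPD2, SNRPB, SNRPG, SNRPD1 and SNRPD3 in TPM, and the ranges of SNRPD1 and SNRPD3 were next to each other without overlap, 92.96 to 117.61 and 71.6 to 91.69.

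The counts and TPM of a gene part when the length assigned to it differs between libraries. The scaled read count per TPM, which is proportional to that length, was therefore compared. For SNRPD3 it was 12.1, 12.3 and 13.8 under vehicle and 13.2, 18.3 and 18.6 under SSD, so SSD replicates 2 and 3 stood above the other 4 libraries and SSD replicate 1 lay among the vehicle values. Over the 6 libraries its coefficient of variation was 20.2%, larger than for 99.5% of the table's genes, whose median was 2.52%. For SNRPD1 it was 29.3, 22.5 and 26.8 under vehicle and 33.7, 29.5 and 25.4 under SSD, with a coefficient of variation of 13.9%. These values overlapped between the groups, and vehicle replicate 2 and SSD replicate 1 were the extremes. SNRPB, SNRPD2 and SNRPG varied by 0.59%, 3.85% and 2.71%. For none of the 5 genes did the reads per TPM separate the groups, and the exact two-sided permutation p was 0.2 to 0.4.

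**Figure D3:**
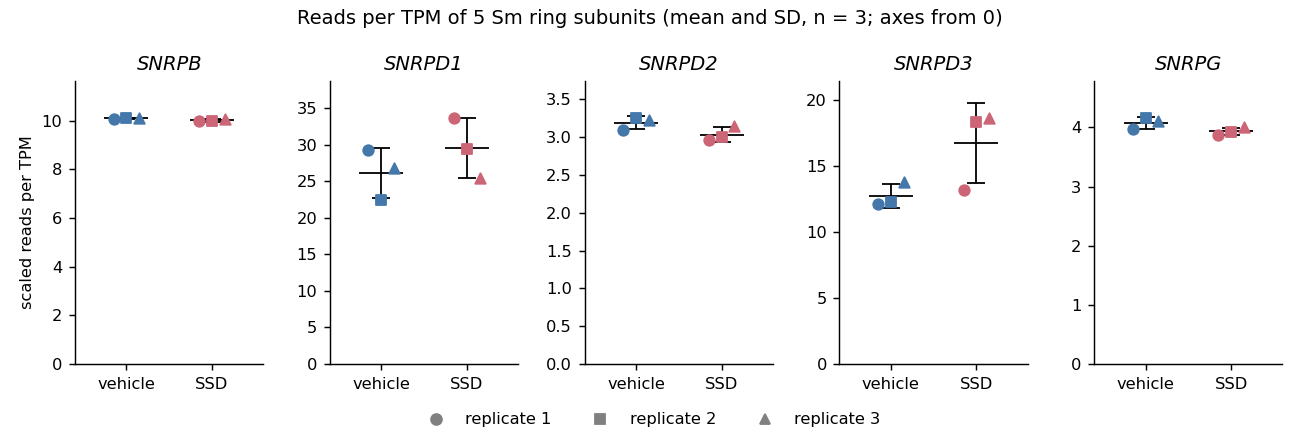
Scaled reads per TPM (y axes, each from 0), which is proportional to the length assigned to the gene in each library, for 3 vehicle (blue) and 3 SSD (red) libraries, with the mean and SD in black. SNRPD3 stood at 18.3 and 18.6 in SSD replicates 2 and 3 and at 12.1 to 13.8 in the other 4 libraries, SNRPD1 varied within both groups, and SNRPB varied by 0.59%.

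Which subunit fell most depended on this length. With a length offset for each gene and library, an alternative chosen after the data were seen, SNRPD3 had a log2 fold change of -0.55 ± 0.13 (SE, adjusted p = 0.0061), SNRPG of -0.46 ± 0.07 (adjusted p = 0.0015) and SNRPD1 of -0.36 ± 0.11 (adjusted p = 0.019, all by edgeR's quasi-likelihood test). SNRPB kept -0.19 ± 0.06 (adjusted p = 0.014), whereas SNRPD2 was at -0.13 ± 0.08 and was not called (adjusted p = 0.14). Again 4 of 5 were called, but with SNRPD3 in place of SNRPD2, beside 38.6% of all genes. SNRPG, SNRPB and SNRPD1 were thus called on both the count and the length-corrected values, and the calls of SNRPD2 and SNRPD3 changed places.

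**Figure D4:**
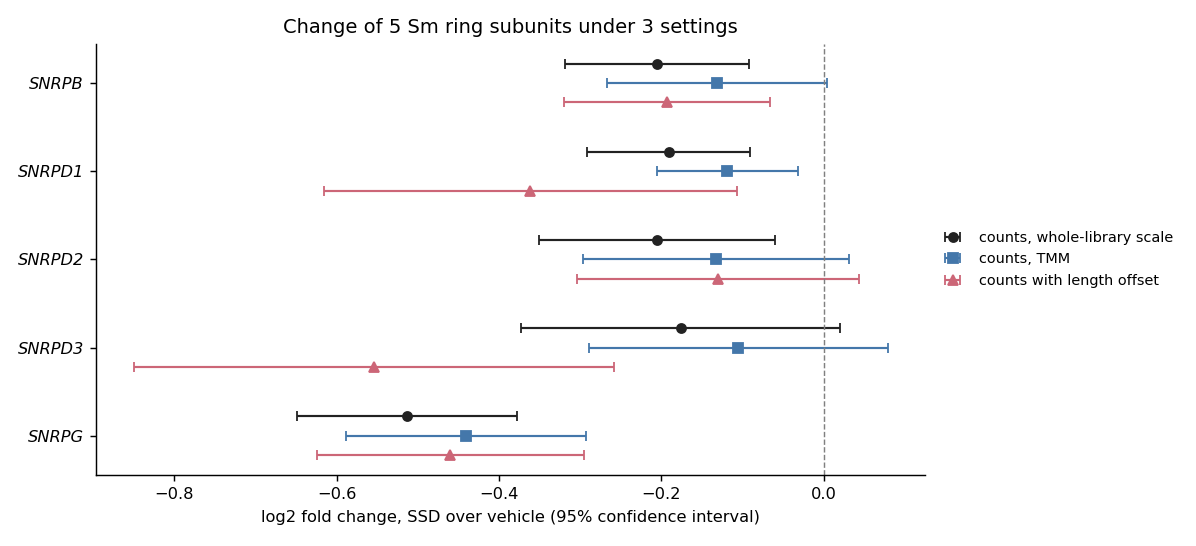
Log2 fold change of SSD over vehicle (x axis) with its 95% confidence interval for the 5 subunits, from counts on the whole-library scale (black), counts under TMM (blue) and counts with a length offset (red). SNRPG lay between -0.51 and -0.44 under all 3, and SNRPD3 moved from -0.18 on counts to -0.55 with the length offset.

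Annotation differs among the 5 genes in ways that bear on length and on read assignment. SNRPD1 (chr18:21612267-21633524, plus strand) has coding transcripts of 320 to 4909 bases, and SNRPD3 (chr22:24555503-24609980, plus strand) of 567 to 1763, while the length listed for SNRPD3 in the table is 3466 bases. SNRPB (chr20:2461634-2470853, minus strand) spans 1008 to 1154 bases in its coding transcripts, the narrowest range of the 5. SNRPD2 (chr19:45687454-45692569, minus strand) has 8 transcripts, 7 of them coding, of 379 to 901 bases, and SNRPG (chr2:70281362-70293771, minus strand) has 9, with coding ones of 398 to 1093 bases.

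SNRPG is the subunit whose reads were most open to sharing, with 20 annotated pseudogene copies. Of the 50-base windows of its 527-base transcript, 24.1% occurred in transcripts of 4 other genes, SNRPGP2, SNRPGP3, SNRPGP10 and SNRPGP15, and of its 100-base windows 7.01% occurred in those of SNRPGP10 and SNRPGP15. SNRPB shared 10.9% of its 50-base windows with AL049650.1, a gene that overlaps it on the same strand over 256 exonic bases. SNRPD3 shares 306 exonic bases with GGT1 on its own strand and 321 with GUCD1 on the other, and SNRPD2 shares 54 with QPCTL on the other. How the authors' program divided such reads is not given in the sources used here, so the values of these 4 genes are uncertain to that extent, and its part in the changes was not tested. SNRPD1 shared 4.84% of its 50-base windows with transcripts of 157 other genes, beside 1.38% for SNRPD2 and 1.34% for SNRPD3. Its values are thus uncertain in the same way, though it shared 0% of its 100-base windows. SNRPD1 and SNRPD3 have 0 annotated pseudogene copies.

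The share of SNRPG among the subunits was compared within libraries, a ratio that no scale between libraries can move. SNRPG made up 15.9%, 15.4% and 15.7% of the summed TPM of the 5 subunits in the vehicle libraries and 13.3%, 13.3% and 13.3% in the SSD libraries. The log2 ratio of SNRPG to SNRPD2 was lower by 0.33 under SSD (-1.49 ± 0.02 and -1.82 ± 0.05, SD, n = 3 each), and that to SNRPB by 0.27 (-1.01 ± 0.04 and -1.27 ± 0.06). Neither ratio overlapped between the groups, and 3 libraries against 3 cannot give an exact p below 0.1. The ratios to SNRPD1 and SNRPD3 overlapped on the TPM scale, with differences of -0.10 ± 0.22 and 0.10 ± 0.14 (SE). From counts they were -0.32 ± 0.07 and -0.33 ± 0.14, without overlap, so the ratio to SNRPD3 changed sign with the measure. SNRPG was singled out with its fall already known, and these ratios are a description.

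Summed over the 5 subunits, TPM was 2146, 2152 and 2051 under vehicle and 1986, 1733 and 1721 under SSD. SSD replicate 1 was closest to the vehicle libraries in this sum, as it was for SNRPB, SNRPD2, SNRPD3 and SNRPG singly, but for SNRPD1 it was the lowest library. The group means of the sum were 2117 ± 56.7 and 1813 ± 150 TPM (SD, n = 3 each). SNRPD2 contributed 43.5% to 44.4% of the sum under vehicle and 45.8% to 48.5% under SSD.

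Among genes that work with the ring, few were in the table. Of 18 listed genes of ring assembly, GEMIN7 and PRMT5 were present. GEMIN7, a subunit of the SMN complex, had 113 ± 2.61 TPM under vehicle and 101 ± 3.04 under SSD (SD, n = 3 each) and had a log2 fold change of -0.24 ± 0.06 on counts (SE, adjusted p = 0.0038, edgeR). With the length offset it was -0.15 ± 0.07 and was not called (adjusted p = 0.065), nor was it with DESeq2's size factors (adjusted p = 0.058) or over 20000 genes (adjusted p = 0.068). PRMT5, the arginine methyltransferase of Sm tails, was called lower on counts, with a log2 fold change of -0.15 ± 0.05 (SE, adjusted p = 0.0095), but with the length offset it was 0.09 ± 0.22 (adjusted p = 0.71), and its TPM of 199 ± 77.9 and 211 ± 33.2 overlapped. Of 3 other Sm proteins and 14 Sm-like proteins listed, 0 were in the table, and their levels were not analysed here.

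Of 37 listed snRNP proteins outside the Sm and Sm-like rings, 3 were present. SNU13, which binds U4 snRNA, fell with a log2 fold change of -0.32 ± 0.06 (SE, adjusted p = 0.0013, edgeR). SNRNP70, of the U1 particle, had -0.17 ± 0.06 (adjusted p = 0.016) and was not called under TMM (adjusted p = 0.16). SF3B6, of the U2 particle, had -0.14 ± 0.07 and did not pass (adjusted p = 0.083). Of the 9 other genes that the table's annotation places in the KEGG Spliceosome pathway, these 3 included, 9 had a negative log2 fold change, 4 were called lower and 0 higher, with a median of -0.14, which is also the median over all genes, of which 52.8% were called lower. Under TMM 7 of these 9 were negative and 2 were called lower.

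The cytosolic ribosomal proteins, a set of short and abundant mRNAs, had a median close to that of the subunits on counts but not with the length offset. Of 57 in the table, 45 were called lower on the whole-library scale, 26 under TMM and 29 with the length offset, beside 52.8%, 26.0% and 38.6% of all genes. The 57 had a median log2 fold change of -0.20 on the whole-library scale and of -0.17 with the length offset, and the medians of the 5 subunits were -0.21 and -0.36. That -0.36 is the value of SNRPD1, whose assigned length varied between libraries. Genes with a short listed length more often had a negative log2 fold change than the table as a whole, at the limit used here. Of 176 genes with a listed length of at most 1100 bases, a limit chosen after the values were seen and met by SNRPB, SNRPD2 and SNRPG, 164 had a negative log2 fold change, with a median of -0.21, beside 712 of 1099 and -0.14 over all genes. The part of length in the subunits' values was not tested. MYC, the transcription factor whose targets the study examined, had 218 ± 12.9 TPM under vehicle and 181 ± 19.9 under SSD (SD, n = 3 each). Its log2 fold change was -0.28 ± 0.07 (SE, adjusted p = 0.0035, edgeR), between the values of SNRPG and the other 4 subunits on counts. MYC was not called over 20000 genes (adjusted p = 0.063) and was near the limit under TMM (adjusted p = 0.044, edgeR in each case). The study instead reports no significant effect of SSD on Myc mRNA by RNA-seq or RT-qPCR, and a fall of Myc protein.

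Across the 6 libraries, the mean of the 5 subunits' log2 TPM, each centred on its own mean, was 0.19, 0.22 and 0.11 under vehicle and -0.08, -0.26 and -0.17 under SSD. SNRPG followed this mean most closely, with a Pearson r of 0.98, and SNRPD1 least, with 0.66, each r including the gene's own share of the mean. Of the genes outside the ring, the 5 most like it were RPL27 (r = 0.99), NDUFAF4 (0.98), ZNF593 (0.98), BZW2 (0.98) and RPS15A (0.98), over 6 libraries that share their sizes and the contrast between groups. RPL27 and RPS15A are ribosomal proteins, and NDUFAF4 is an assembly factor of respiratory complex I.

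RefSeq promoter windows (GRCh38.p14) matched 4 of the 5 subunits, with 9 windows in all and no entry used for SNRPD1. The E-box CACGTG, which reads the same on both strands and is a sequence that Myc is known to bind, was in 0 of the 9, beside 7.26% of 35116 windows of the same length. The SNRPG windows overlap one another, and all windows of SNRPG and SNRPD2 lie inside the GENCODE coordinates of the gene. Sequence upstream of those 2 genes was therefore not searched. The result says only that these letters are not in these windows. The study reports Myc ChIP-seq signal at promoters of the splicing factors it followed, which was not analysed here.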

How the data were processed

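Polyadenylated RNA of AGS cells was sequenced in 6 libraries, 3 with vehicle and 3 with SSD. Estimated counts (33.5% not whole) and TPM per gene and library were deposited by the authors for 1099 genes, and the table's columns were mapped to samples by name. The submitters' processing notes give GRCh38.p13. The aligner and counting program are not given in the sources used here. The gene length in bases was deposited too. Columns of fold changes, p-values, adjusted p-values and direction of the authors' own comparison, and group means of TPM, were not used. Per-sample columns left unmapped numbered 0.

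Counts were rounded and tested in R 4.3.3 with edgeR 4.0.16's quasi-likelihood test (two-sided, group as the only term) on the whole-library scale: per library, the median over genes of count over TPM, relative to the gene's geometric mean. P-values were adjusted over the 1099 genes by the Benjamini-Hochberg method, with calls at an adjusted p under 0.05. The filter on low counts removed 0 genes, and the smallest mean was 59 counts. Exact permutation tests (SciPy 1.17.1) were two-sided. Intervals cover 95%. Scripts were tested on simulated data. The members, gene lists and tests were chosen with earlier results of these data known. Named were the 5 members, listed genes of the Sm ring, its assembly and the snRNPs that the table holds, MYC, and the 5 genes most correlated with the members. Alternatives were TMM, DESeq2 1.42.0 (size factors, Wald test), the table's total count, other filters, adjustment over 20000 genes, a replicate block, each library left out, and limma 3.58.1 applied to TPM as log2 with 1 or 0.1 added. The length offset (count over TPM per gene and library) and SNRPG ratios from counts were added after the data were seen. Total library depth is unknown, and counting errors cover counting only. Genes and transcripts came from GENCODE release 29 (GRCh38). Primers came from the study's supplement and were matched exactly to transcripts.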

Additional observations from a re-analysis of the deposited data

How the results depend on the processing

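The fall of SNRPG kept its direction and its call under 17 of 17 alternatives (log2 fold change -0.57 to -0.42), which reuse the same libraries and are not independent. On TMM, DESeq2's size factors, adjustment over 20000 genes, the table's total count, limma on log2(TPM + 1) and limma on log2(TPM + 0.1), 286, 232, 162, 357, 385 and 378 genes were lower, against 580. The first 3 of these called 2, 1 and 1 subunits lower, against 4. SNRPB was no longer called with TMM (-0.13), DESeq2's size factors (-0.11) or 20000 genes (-0.21, adjusted p = 0.078), nor SNRPD1 with DESeq2's size factors (-0.10) or 20000 genes (-0.19, adjusted p = 0.057). SNRPD2 was not called with TMM (-0.13), DESeq2's size factors (-0.11), the table's total (-0.15), 20000 genes (-0.21, adjusted p = 0.26), either limma fit (-0.14 and -0.14) or the length offset (-0.13). SNRPD3 was called with limma (-0.55 and -0.56) and the length offset (-0.55). DESeq2's Wald test and the filters changed no subunit's call. Without 1 library at a time, 391 to 624 genes and 3 to 5 subunits were lower, and the log2 fold changes ran from -0.28 to -0.15 for SNRPD2 and from -0.28 to -0.11 for SNRPD3. The TPM ratio of SNRPG to SNRPD1 then ran from -0.27 to 0.053 and turned positive without SSD replicate 3, and that to SNRPD3 from -0.017 to 0.17, negative without SSD replicate 2. From counts the ratio to SNRPD3 was -0.33. The cause of these differences was not tested. TMM, DESeq2's size factors and the table's total count change the scale between libraries by construction. Adjustment over 20000 genes and leaving out 1 library do not.

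Same-numbered libraries did not deviate together (correlations of -0.23, -0.01 and -0.03, beside -0.21 to 0.24 for differently numbered ones). With 3 libraries per group this cannot settle whether the numbers pair them. With the replicate number as a block, 517 genes were lower, 387 higher and 4 subunits lower, and SNRPG was at -0.52. TPM and counts cover selected genes only, so genes outside the table, the other ring subunits among them, were not analysed here.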
